A study of Triticum aestivum with 10 samples.

Results

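Whole developing seeds of wheat (Triticum aestivum) taken from droughted and from regularly watered plants at 48 hours after fertilization (HAF) were compared on the Affymetrix wheat array. The members are the 4 arrays that the labels place at 48 HAF, 2 titled as drought and 2 as control, of 10 arrays in all. The plants were the winter wheat cultivar Redland, vernalized as seedlings, potted and grown in a growth chamber. Control plants were watered 2 times a day throughout, while watering of the drought plants was stopped. The labels place the start of the drought at 24 HAF in one sentence and at 48 HAF in another, so the length of the drought before sampling is not settled. No genotype or agent other than watering distinguished the groups. The other 6 arrays were 2 at 24 HAF and 2 control and 2 drought arrays at 72 HAF. The titles of the 24 HAF arrays name no treatment, and these arrays are called control here. All 6 are used only where they bear on the 48 HAF seeds. Replicates are called biological in the labels, but no plant, pot or spike is named, so a p-value here measures no more than how far these samples spread.

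In the days after fertilization the endosperm of a wheat seed divides its nuclei without walls and then forms cells, while the maternal pericarp around it is still green and thick. Starch and the storage proteins of the grain are laid down later. Plants short of water are known to make abscisic acid, to induce protective proteins such as dehydrins and other late embryogenesis abundant (LEA) proteins, and to change sugar metabolism and antioxidant defence. The array reads whole seeds, so fewer cells of a type and less RNA per cell cannot be told apart.

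The values are log2 expression levels of probe sets, and a difference of 1 is a 2-fold change. After 111 control probe sets were left out, 61179 probe sets were tested. Only 1273 of them carried a gene symbol, for 771 genes, so most results are given by probe set. The medians of the 4 arrays lay at 4.08 to 4.11. Markers of the seed's tissues were read to check the label. Levels of different probe sets cannot be ranked, since each has its own probes. The ribulose bisphosphate carboxylase large subunit read 14.1 on all 4, the photosystem protein PsbO 10.2 to 10.9, beta-amylase 12.1 to 12.2 and the starch synthase waxy 10.6 to 10.8. By the brightest probe set of each gene, the gliadins, storage proteins of the ripening grain, lay between 1.46 and 4.83. Some other storage protein genes read higher, the low-molecular-weight glutenin LOC543213 at 5.30 to 5.68 and avnlb at 9.91 to 10.1. The dimmer probe sets of avnlb lay at 2.46 to 4.21. The bacterial spike-in BioB, which is added to the hybridisation, read 5.04 and 6.71 on control replicates 1 and 2 and 5.43 and 4.01 on drought replicates 1 and 2, and its part in the results was not tested.

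The 4 arrays did not group by treatment. Counting probe sets at least 2-fold apart, the control replicates differed in 1447 and the drought replicates in 1315. Drought replicate 1 and control replicate 2 differed in only 234, while drought replicate 2 and control replicate 1 differed in 741. The remaining drought and control pairs, those of the same number, differed in 1473 for replicates 1 and in 1553 for replicates 2. Control replicate 1 in turn lay nearest to control 24 HAF replicate 1, with 164 probe sets 2-fold apart. Across all probe sets the median SD was 0.13 between the control replicates and 0.13 between the drought replicates, and the median size of the difference between the group means was 0.12, no larger than the spread within a group. At 72 HAF likewise, control replicate 2 and drought replicate 1 differed in only 63, and each of the 10 arrays correlated best with one of a different group. Whether samples had been exchanged was not tested. Drought and control therefore mean the arrays so labelled, on which the direction of every difference rests, and the main results that lean on 1 array are also given without it.

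**Figure D1:**
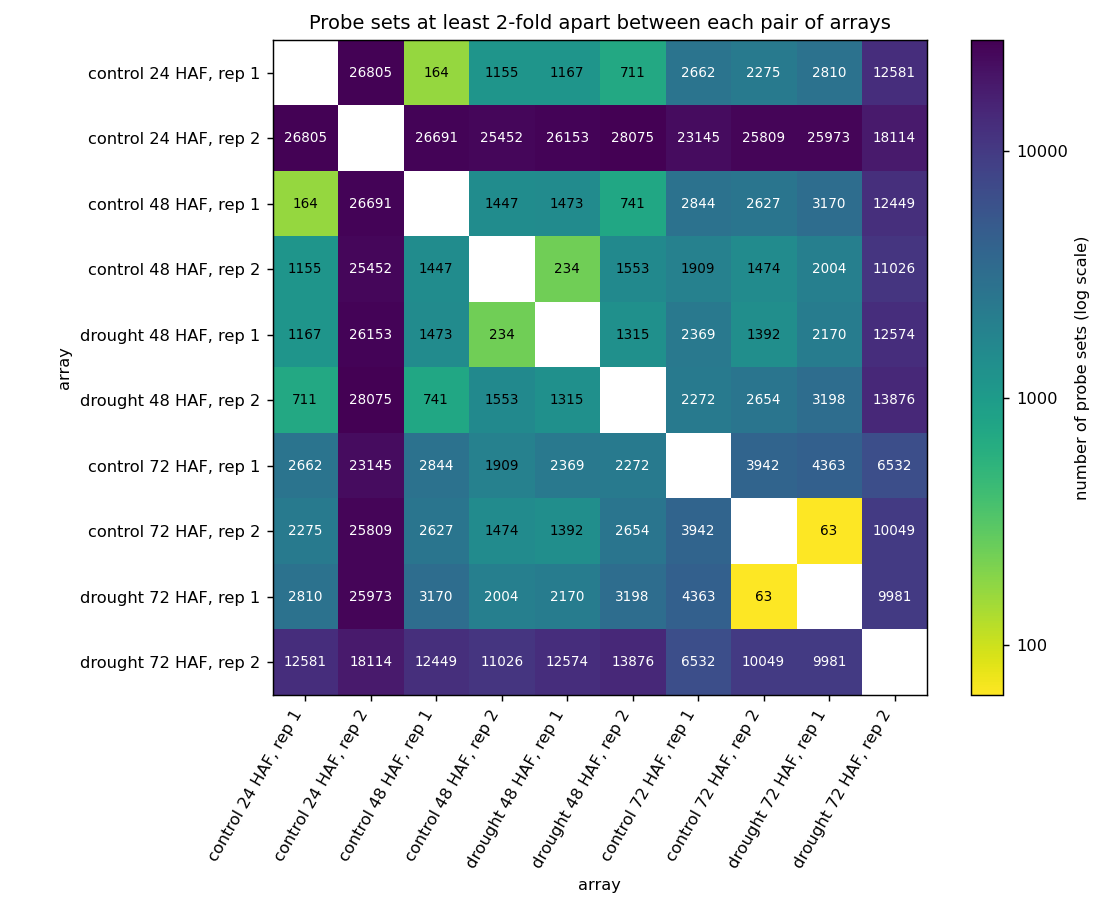
Number of probe sets at least 2-fold apart for each pair of the 10 arrays, on a log colour scale, with the arrays in the same order on both axes (HAF, hours after fertilization; rep, replicate). The drought 48 HAF replicate 1 and control 48 HAF replicate 2 differ in 234 probe sets, fewer than the 1447 between the control replicates and the 1315 between the drought replicates of that time.

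No gene passed the test for drought against control at 48 HAF. limma, fitted on the 4 arrays over all probe sets, called 0 of 61179 (0% of the probe sets tested), with a smallest Benjamini-Hochberg adjusted p of 0.999. Unadjusted, 1601 probe sets had p under 0.05, fewer than the 3059 that evenly spread p-values would give. The intervals were narrow for most of the array. The half-width of the median 95% interval was 0.42 (log2), a 1.34-fold change, and 92.1% of probe sets had the whole interval within a 2-fold change. Of the 23650 probe sets with a mean log2 level of at least 5, 89.4% did. With 2 arrays against 2, an exact permutation test of a single value cannot give p below 0.33.

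Because the question asked was which genes differ the same way in both replicates, probe sets were next taken whose drought arrays both lay above or both below the 2 control arrays. At any size, 19132 probe sets were separated in this way, or 31.3% of those tested. With the group means also at least 2-fold apart there were 101. Of these, 90 were lower in drought (0.147% of the probe sets tested) and 11 higher (0.018%). The members nearest to the limit were TaAffx.118084.1.S1_at just inside, at a difference of -1.01, and Ta.10775.2.S1_at just outside, at -0.99. The 101 probe sets fell into 87 groups of related identifiers, as probe sets whose names share the first number were designed on the same or similar transcripts, and 4 carried a gene symbol. In 13 of the 101 even the higher group mean lay under the medians of the arrays, where a probe set may not have been detected.

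Most of the lower probe sets shared a high reading on 1 control array. In 49 of the 90 lower probe sets, control replicate 1 lay at least 2-fold above control replicate 2. Their median levels were 6.78 on control replicate 1, 3.41 on control replicate 2, 3.12 on drought replicate 1 and 2.97 on drought replicate 2. Control replicate 2 thus read almost as low as the drought arrays. The median difference of these 49 was -1.72 with both control arrays and -0.31 without control replicate 1, and 0 of the 49 stayed 2-fold lower without it. On control 24 HAF replicate 1 their median was 5.81, and 47 of the 49 read higher there than on control 48 HAF replicate 2 and both drought arrays, 34 of them by at least 2-fold. On control 24 HAF replicate 2 their median was 3.86, near that of the low arrays. That array differed by 2-fold or more from its own replicate in 26805 probe sets. Most of the 49 were thus high on replicate 1 of the controls of both times and low on the other control array of 48 HAF. Ta.5128.1.A1_at was among the exceptions, at 7.35 on control 48 HAF replicate 1 but 2.48 on control 24 HAF replicate 1.

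The largest differences in the comparison were of this kind, 13 of the 15 that reached 4-fold. Ta.28289.1.S1_a_at read 10.5 and 3.05 on control replicates 1 and 2, and 2.77 and 2.89 on drought replicates 1 and 2, a difference of -3.96. Ta.4398.1.S1_at read 8.77 and 2.49 in control and 2.09 and 2.20 in drought seeds, a difference of -3.48. In both, 1 control array stood alone, and the gap between the other control array and the nearest drought array was 0.16 and 0.29. Probe sets of 1 transcript group did so together: 5 of the 6 probe sets named TaAffx.52653 were separated, with differences of -1.97 to -1.26, and TaAffx.52653.1.A1_s_at read 11.0 on control replicate 1 against 7.69 on control replicate 2 and 7.33 and 7.45 on the drought arrays. Of the 4 probe sets named Ta.5703, 3 were separated in the same manner, at -2.38 to -1.84.

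**Figure D2:**
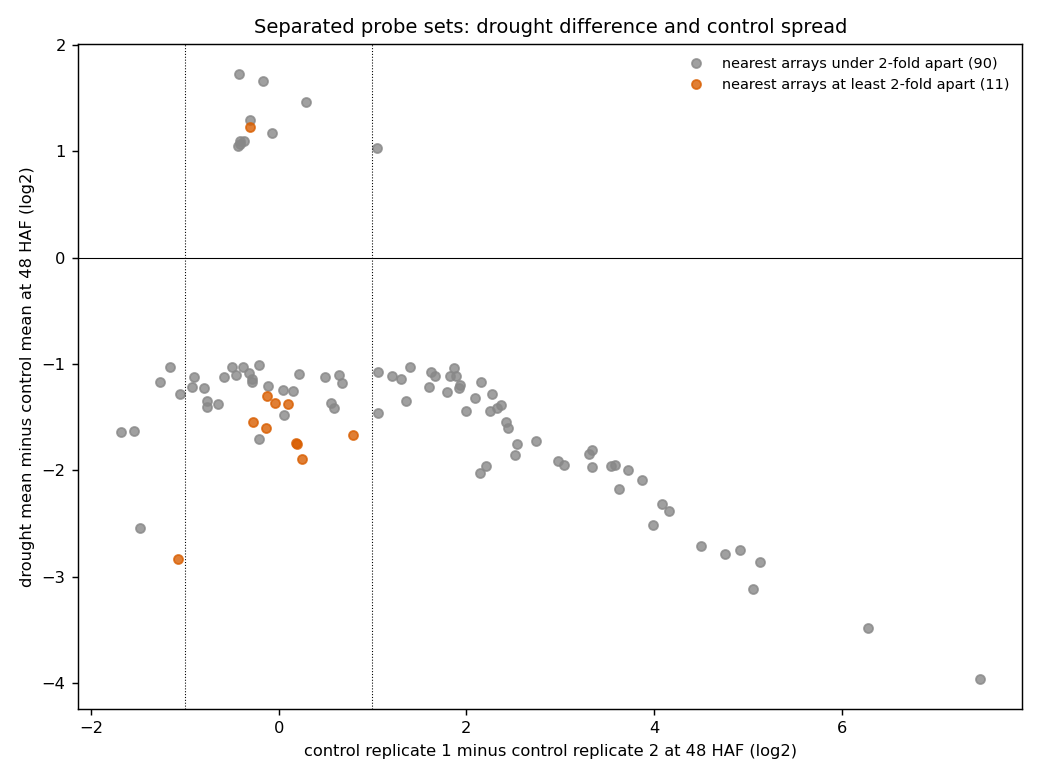
Difference between the drought and control means at 48 HAF (vertical axis, log2) against the difference between the 2 control replicates (horizontal axis, log2) for the 101 separated probe sets, each a point, with dotted lines at a 2-fold difference between the controls. The 49 points right of the upper dotted line and below 0 run downwards with the control difference, while the 11 probe sets whose nearest arrays lie 2-fold apart (orange) sit mostly between the dotted lines.

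A smaller set did not rest on 1 control array. In 34 of the 90 lower probe sets the control replicates were less than 2-fold apart, and their medians were 6.06 and 5.87 on control replicates 1 and 2 and 4.92 and 4.39 on drought replicates 1 and 2. Their differences ran from -1.89 to -1.01, and 30 of the 34 stayed 2-fold lower without control replicate 1. Some leaned on drought replicate 2 instead, and in 6 of the 34 the drought replicates were themselves 2-fold or more apart. TaAffx.19770.1.S1_at, at 5.31 and 2.71 on drought replicates 1 and 2, differed by -1.70, and by -0.40 without drought replicate 2. In another 7 control replicate 2 was the higher one by 2-fold or more. The strictest set, in which even the nearest drought and control arrays lay at least 2-fold apart, held 11 probe sets of 9 groups of related identifiers. Of these, 10 were lower in drought (0.0163% of the probe sets tested) and 1 higher (0.00163%). Their means differed 2.34-fold to 7.11-fold, and no gene name was given for any of them.

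The widest gap was that of TaAffx.9330.1.S1_at. It read 6.76 and 7.83 on control replicates 1 and 2, and 4.86 and 4.07 on drought replicates 1 and 2. Both drought arrays lay well below both control arrays, and the control 24 HAF arrays, at 6.52 and 7.32, were as high as the controls of 48 HAF. The difference was -2.83 (SE 0.43; limma adjusted p = 0.999), and -3.37 to -2.30 without each array in turn. Ta.28209.3.S1_x_at read 7.40 and 7.20 in control and 5.81 and 5.28 in drought seeds, a difference of -1.75 (SE 0.23). TaAffx.97616.1.S1_at read 7.14 and 7.04 in control and 5.64 and 5.79 in drought seeds, a difference of -1.38 (SE 0.16). In both the replicates of a group were close. TaAffx.97616.1.S1_at differed by -1.45 to -1.30 with each array left out in turn, and its unadjusted limma p was 0.000248. The strict set was chosen by the gap between the nearest arrays, so no member could fall under 2-fold without 1 array.

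Ta.3696.2.S1_at read 7.07 and 6.82 in control and 5.64 and 4.47 in drought seeds, a difference of -1.89 (SE 0.40). Ta.3696.2.S1_x_at, which differs from it only in the suffix of the name, read 7.47 and 7.28 against 6.27 and 4.99. The drought replicates were apart in both, with replicate 2 the lower. Ta.20909.2.S1_s_at read 6.62 and 6.67 in control and 5.45 and 5.11 in drought seeds, a difference of -1.37 (SE 0.19). The other lower probe sets of the strict set were TaAffx.25555.3.S1_s_at (-1.67), TaAffx.106641.1.S1_at (-1.61), TaAffx.13113.2.S1_s_at (-1.55) and TaAffx.13113.2.S1_x_at (-1.30).

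Other probe sets with the same leading number shared the difference in some groups and not in others. All 5 named TaAffx.13113 were lower, with TaAffx.13113.2.S1_at (-0.84) and TaAffx.13113.1.S1_at (-0.43) also separated, and so was TaAffx.25555.1.S1_s_at (-1.46). Ta.28209.3.S1_at, which differs from Ta.28209.3.S1_x_at only in the suffix, was lower by 1.26 in the group means, with 6.38 and 6.23 in control and 5.27 and 4.83 in drought seeds. Ta.28209.1.S1_a_at and Ta.28209.2.S1_x_at, at levels of 11.2 to 12.4, differed by -0.08 and -0.13. The other 4 probe sets named Ta.20909 differed by -0.19 to -0.04, and Ta.3696.3.S1_a_at by -0.02, with the arrays of the groups overlapping in each. Whether the probe sets of a group read 1 gene or several similar ones was not tested.

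In the higher direction TaAffx.128896.22.S1_s_at stood first. It read 8.87 and 9.18 on control replicates 1 and 2 and 10.2 and 10.3 on drought replicates 1 and 2, a difference of 1.23 (SE 0.16; limma adjusted p = 0.999). The drought replicates were close together and both above both controls. Of the other probe sets of that number, TaAffx.128896.2.S1_at differed by 0.90 and TaAffx.128896.23.S1_at by 0.66 with overlapping arrays, and TaAffx.128896.6.A1_at by -0.77. The rest ran from -0.42 (TaAffx.128896.8.A1_at) to 0.37 (TaAffx.128896.3.S1_at). Among them TaAffx.128896.17.S1_s_at, which differed by 0.19, was annotated to the ribulose bisphosphate carboxylase large subunit. TaAffx.56965.1.S1_at read 6.07 and 6.37 in control and 7.35 and 7.67 in drought seeds, a difference of 1.29 (SE 0.20). Next by the gap between the nearest arrays came TaAffx.118659.1.S1_at (1.09), Ta.23066.2.S1_s_at (1.17) and TaAffx.105682.1.S1_at (1.05), all at group means under 5.5. In 5 of the 11 higher probe sets the drought replicates were themselves 2-fold or more apart, as in Ta.3079.2.S1_s_at, which read 10.1 on drought replicate 1 and 6.97 on replicate 2 against 6.79 and 6.96 in control seeds.

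**Figure D3:**
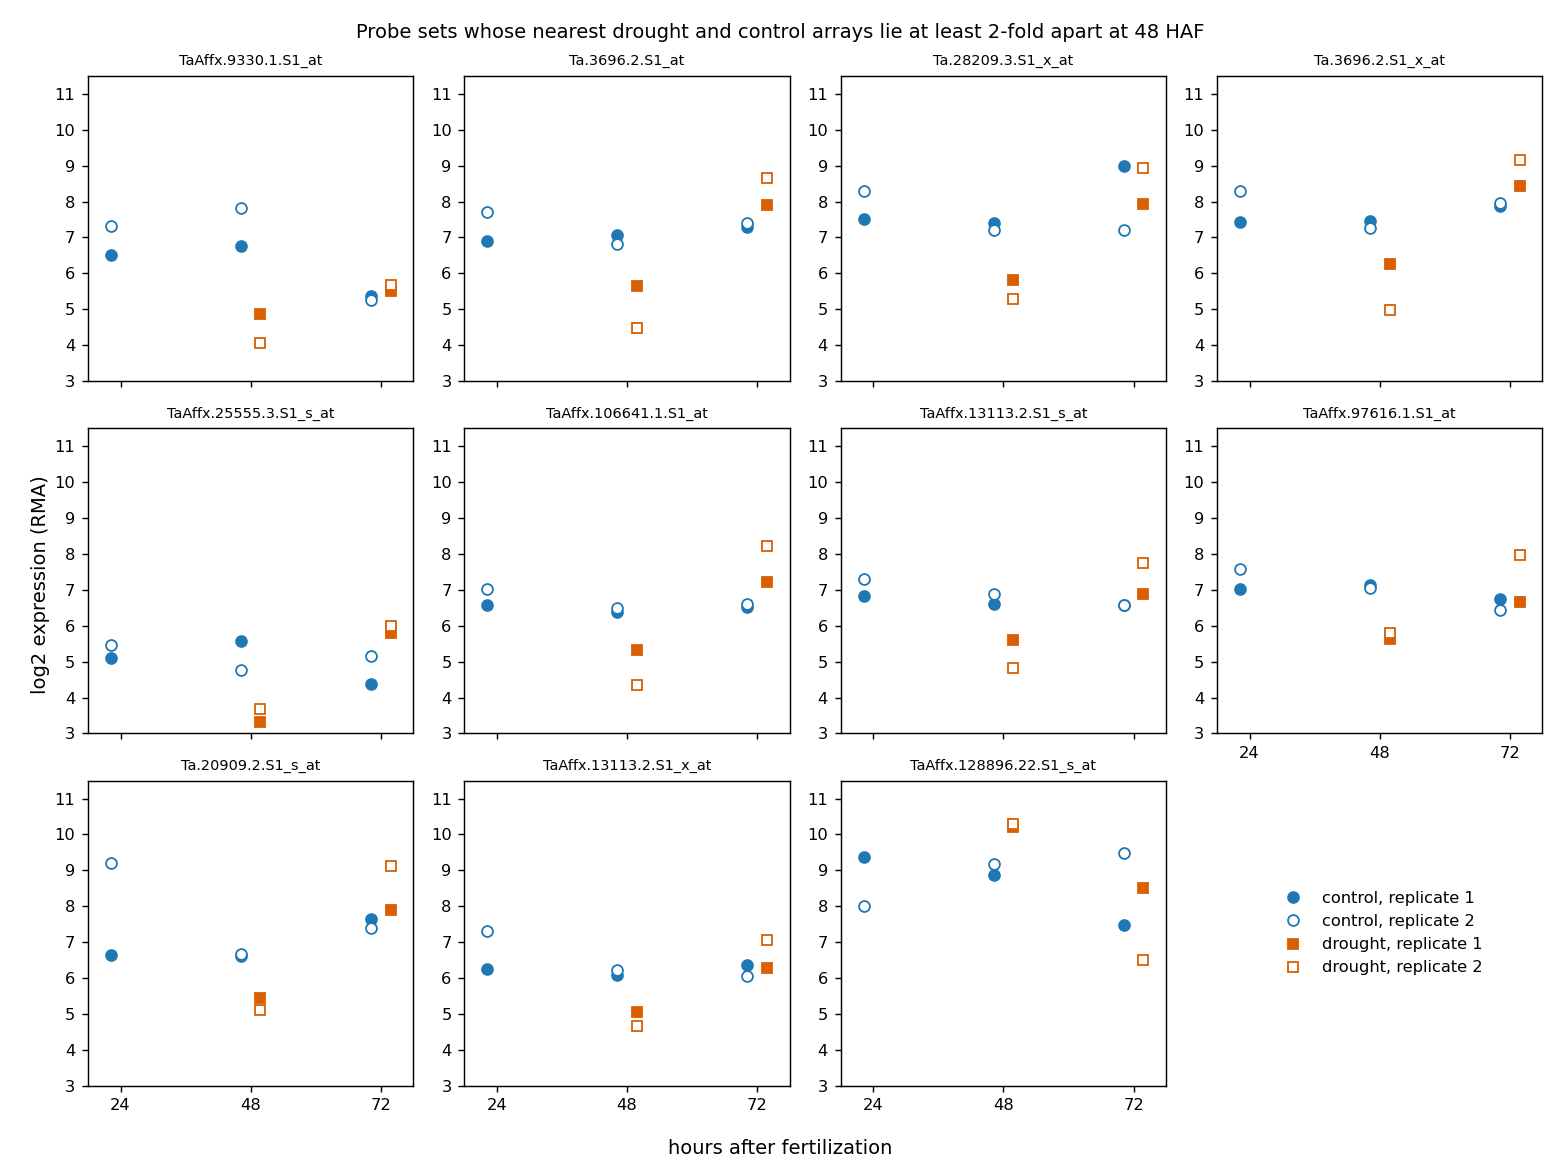
Log2 level of the 11 probe sets whose nearest drought and control arrays lay at least 2-fold apart at 48 HAF, 1 panel each, on all 10 arrays against hours after fertilization (circles control, squares drought; filled replicate 1, open replicate 2). In the 10 lower probe sets both drought squares of 48 HAF lie below the control circles of that time, and at 72 HAF their mean lies above that of the controls.

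The arrays of 72 HAF, which played no part in the choice, were then read for the same probe sets. Of the 90 probe sets lower in drought at 48 HAF, 62 were higher in drought at 72 HAF by the group means, or 68.9%, while 54.1% of all probe sets were. The count was 51 to 70 when each 72 HAF array was left out in turn, and the share of all probe sets moved too. Without control 72 HAF replicate 1 the shares were 77.8% of the 90 and 58.1% of all. They were 56.7% and 50.15% without control replicate 2, 73.3% and 58.5% without drought replicate 1, and 56.7% and 47.2% without drought replicate 2. Drought 72 HAF replicate 2 differed by 2-fold or more from its own replicate in 9981 probe sets. The spike-in BioB read 5.44 and 4.49 on control 72 HAF replicates 1 and 2 and 4.91 and 6.97 on drought replicates 1 and 2. On control 24 HAF replicates 1 and 2 it read 4.75 and 11.9. Its group mean was thus lower in drought at 48 HAF and higher at 72 HAF, and its part in these shares was not tested. With all arrays of 72 HAF, the shares were not alike in the sets described above. Of the 49 with a high control replicate 1, 26 were higher at 72 HAF (53.1%), close to the share of all probe sets, and of the 34 whose control replicates were less than 2-fold apart, 30 were (88.2%). Of the 11 probe sets higher at 48 HAF, 10 were lower at 72 HAF, against 45.9% of all probe sets. Both drought arrays of 72 HAF lay above both controls in 24 of the 90 (26.7%), as did 13% of all probe sets, and below both in 4 of the 11, as did 8.37% of all. The arrays of each time are separate, so no control is shared, but related probe sets are counted singly in these shares and no test was made of them.

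All 10 lower probe sets of the strict set had a higher drought mean at 72 HAF, as did 54.1% of all probe sets. The count was 9 without control 72 HAF replicate 2 or without drought 72 HAF replicate 2. In 7 of the 10 both drought arrays of 72 HAF lay above both controls, as did 13% of all probe sets. The 10 fell into 8 groups of related identifiers, so they are not 10 separate cases. Ta.3696.2.S1_at read 7.30 and 7.40 in control and 7.92 and 8.64 in drought seeds at 72 HAF. Ta.20909.2.S1_s_at read 7.63 and 7.40 in control and 7.89 and 9.13 in drought seeds. The order of the groups was thus the opposite of that at 48 HAF in both. TaAffx.9330.1.S1_at read 5.36 and 5.27 against 5.52 and 5.68, where its control level was lower than at 48 HAF and the groups lay close. In the limma fit of the 8 arrays, the drought effects at 48 and 72 HAF differed past the threshold in 0 of 61179 probe sets (0% of those tested), with 1158 at an unadjusted p under 0.05. The adjusted p was 0.999 for each of the 11 probe sets of the strict set, whose choice had already used their 48 HAF values.

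Among genes with a symbol, 3 were separated by 2-fold in their brightest probe set and LOC778394 in its dimmer one, all lower in drought. None has a readable name in the tables used. LOC778383 read 6.76 and 3.04 on control replicates 1 and 2 and 2.84 and 2.97 on drought replicates 1 and 2, a difference of -1.99 that was -0.13 without control replicate 1. LOC100037551 read 9.41 and 7.08 in control and 6.72 and 6.94 in drought seeds, a difference of -1.42 that was -0.25 without control replicate 1. Both had 1 high control array and the other near the drought level. LOC778394 read 5.78 and 2.80 against 2.17 and 2.58 in TaAffx.105521.1.S1_at, a difference of -1.91 that was -0.42 without control replicate 1, and 8.36 and 4.10 against 4.51 and 4.32 in Ta.10532.1.A1_s_at, where the groups overlapped. LOC543317 did not rest on 1 control array, at 4.27 and 3.60 in control and 3.01 and 2.49 in drought seeds. Both group means, 3.93 and 2.75, lay under the array medians, so it may not have been detected. Its difference was -1.18 (SE 0.30; limma unadjusted p = 0.00909, adjusted p = 0.999), and -1.52 to -0.84 without each array.

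The other genes of smallest unadjusted p differed by less than 2-fold. LOC543093 read 3.51 and 3.52 in control and 4.19 and 4.05 in drought seeds, a difference of 0.60, and its dimmer probe set differed by -0.11. LOC543479 read 6.96 and 7.09 against 7.70 and 7.54, a difference of 0.59, and its other probe set differed by -0.03. In both genes the probe sets thus disagreed. The zinc finger gene WZF1 (LOC543182) read 3.76 and 3.31 in control and 2.94 and 2.61 in drought seeds, a difference of -0.76. LOC543458 differed by -0.58 and LOC543308 by -0.36, both at levels under the array medians. LOC780602 had 5 probe sets with differences of -0.80 to 0.06, LOC542976 had 2 at -0.48 and 0.17, and LOC780640 had 3 at -0.05 to 0.47. The 28 probe sets annotated to the ribulose bisphosphate carboxylase large subunit (LOC100049018) split evenly, 14 higher and 14 lower, from -0.68 to 0.26.

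Over the 771 genes, each by its brightest probe set, 380 were higher and 391 lower in drought, 187 were separated (24.3%, against 31.3% of all probe sets), and 8 had group means 2-fold apart. The 95% interval lay inside a 2-fold change for 672 of them. Of these genes, 87 with a known name were sorted into 17 groups by function. Of the 87, 38 were higher and 49 lower, 21 were separated (9 higher, 12 lower), 0 reached 2-fold and 0 passed limma's threshold. Of the 87, 73 had an interval inside 2-fold.

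The genes of drying tolerance differed little between the groups. By their brightest probe sets, the 5 dehydrin and LEA genes lay 4 higher and 1 lower, with a mean difference of 0.04. Of the 5, 0 were separated, against 31.3% of all probe sets, and all 5 intervals were inside 2-fold. COR410, a cold-induced acidic dehydrin, read 2.36 and 2.85 in control and 2.50 and 2.79 in drought seeds. Rab15, a dehydrin responsive to abscisic acid, read 5.30 and 4.85 against 5.11 and 5.17. These levels were low in both groups, and the Em proteins EM (0.21) and EMH2 (0.04), and LEA1 (-0.14), lay at 2.79 to 4.62. COR410, EM and LEA1 read under the array medians on all 4 arrays, so they may not have been detected. No gene of abscisic acid synthesis or signalling had a name on the annotated part of the array. Of the heat shock genes, the small heat shock protein hsp16.9A read 2.64 and 3.47 in control and 3.84 and 3.09 in drought seeds, with overlapping arrays, and the peptidyl-prolyl isomerase FKBP70 differed by 0.08.

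All 3 gibberellin 20-oxidases, which make the precursors of active gibberellins and are copies of 1 gene in the wheat genomes, were higher in drought. Of these 2 were separated, as were 31.3% of all probe sets. GA20ox1a read 3.73 and 3.94 on control replicates 1 and 2 and 4.18 and 4.34 on drought replicates 1 and 2. Its difference was 0.43 (95% interval 0.0026 to 0.85; limma adjusted p = 0.999). GA20ox1d differed by 0.13 and GA20ox1b by 0.20, the latter with overlapping arrays. All 3 lay near or under the array medians but for GA20ox1d, at 4.76 to 4.99.

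By the brightest probe set of each, the 3 genes of sucrose and fructan breakdown were all lower in drought, as were 49.5% of all probe sets. Of the 3, 2 were separated, as were 31.3% of all probe sets. The fructan exohydrolase 1-FEH, which splits fructans, read 8.78 and 8.23 in control and 8.10 and 8.04 in drought seeds, a difference of -0.44 (95% interval -0.99 to 0.12). The invertase IVR1, which splits sucrose, differed by -0.22 at levels of 2.34 to 2.72. The third, 6-FEH, read 9.62 and 8.45 in control and 8.35 and 9.40 in drought seeds, so its replicates were further apart than its groups. Its other probe sets differed by 0.19 (Ta.30950.1.A1_x_at) and -0.09 (TaAffx.93410.1.S1_at), so they went opposite ways. The mean difference of the 3 genes was -0.27, and -0.02 without control replicate 1. Of the starch genes, ADP-glucose pyrophosphorylase AGP-S (0.11), the granule-bound synthase waxy (-0.04) and the beta-amylase BMY1 (-0.04) overlapped between the groups. All 3 starch intervals were inside 2-fold.

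Read by the brightest probe set of each gene, photosynthesis genes were lower in 6 of 7 by the group means. Over all probe sets, 49.5% were lower. Of the 7, 0 were separated, against 31.3% of all probe sets, and the mean difference was -0.21. PsbO of the oxygen-evolving complex read 10.5 and 10.9 in control and 10.8 and 10.2 in drought seeds. Phosphoribulokinase PRK of the Calvin cycle read 9.58 and 10.2 against 10.2 and 9.26. In each of these, control replicate 2 and drought replicate 1 were the high arrays, and over the 7 genes the array means were 10.4 and 10.9 in control and 10.7 and 10.2 in drought seeds. Trx-M (-0.36) and the chloroplast fructose bisphosphatase FBP (-0.30) were the furthest from 0 by these probe sets. The mean of the 7 ran from -0.47 to 0.05 as single arrays were left out. Among dimmer probe sets, that of PsbP was separated at -0.59, and that of FBP was separated the other way, at 0.20 and levels of 2.83 to 3.14.

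Drought replicate 1 and control replicate 2 were also the high arrays for some genes of the grain's inhibitors and of defence. The purothionin THI1.1, a small antimicrobial protein, read 2.53 and 5.47 on control replicates 1 and 2 and 5.45 and 2.37 on drought replicates 1 and 2. The alpha-amylase/trypsin inhibitor LOC543281 read 2.74 and 4.63 against 4.91 and 2.68. Drought replicate 1 and control replicate 2 read high and the other 2 arrays low in both, and the group differences were only -0.10 and 0.11. Of the 8 inhibitor genes 2 were higher and 6 lower (mean -0.14, and 0.06 without control replicate 2 or 0.15 without drought replicate 2). Of the 8 defence genes 2 were higher and 6 lower (mean -0.10, and 0.18 and 0.23 without the same arrays). The xylanase inhibitor XIP-I had the largest difference among them, at 7.51 and 6.04 in control and 5.76 and 6.15 in drought seeds (-0.82), with overlapping arrays. The thaumatin-like PR5 (-0.40) was separated at levels of 1.94 to 2.57.

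Storage protein genes were lower in 6 of 8. The mean difference was -0.12, and -0.016 without control replicate 2, and 3 of the 8 were separated, a share near the 31.3% of all probe sets. The low-molecular-weight glutenin LOC543213 read 5.63 and 5.68 in control and 5.36 and 5.30 in drought seeds, a difference of -0.33 (95% interval -0.72 to 0.064). Its 3 probe sets were all lower, from -0.33 to -0.04. The gliadins Gli-D2 (-0.29) and Gli-8 (-0.20) were also separated, and all 8 intervals lay inside 2-fold. Antioxidant and detoxification genes were 3 higher and 4 lower. Phytochelatin synthase PCS1, which makes metal-binding peptides, read 7.21 and 6.87 in control and 7.40 and 7.57 in drought seeds (0.44), and the peroxiredoxin PER1 differed by -0.20 in one probe set and 0.17 in the other, while catalase CAT1 (-0.52) overlapped between the groups.

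Genes of basic cell functions also differed little. The 6 tubulins, at levels of up to 12.8, differed by -0.0023 to 0.17, with 5 higher. Of the 6, 2 were separated, tubb3 (0.15) and tubb4 (0.17), a share near the 31.3% of all probe sets. The histone and HMG genes, markers of dividing cells, were 4 higher and 2 lower with 0 separated, the largest being the histone H2A-2 (0.43), at 8.27 and 7.71 in control and 8.04 and 8.80 in drought seeds. The 7 translation genes differed by -0.19 to 0.18, with the initiation factor eIF-2-beta (-0.19) and Eif4B (0.18) separated in opposite directions. Separation was no more frequent among these 7 than the 31.3% of all probe sets. All translation and tubulin intervals were inside 2-fold.

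The remaining groups were small. Of the 4 genes of methyl group metabolism, the protein-repairing methyltransferase PIMT read 3.65 and 3.78 in control and 3.99 and 4.30 in drought seeds (0.43), and the other 3 differed by -0.02 to 0.08. Of the 3 glycolysis genes, all lower, the non-phosphorylating glyceraldehyde-3-phosphate dehydrogenase GAPN read 7.66 and 6.45 in control and 6.46 and 5.78 in drought seeds. Its difference of -0.94 was the largest of the 87 genes, and control replicate 2 lay within the range of the drought arrays. The plasma membrane proton pump ha1 was the only separated member of the cell wall and transport group, at 11.0 and 11.0 in control and 10.9 and 10.5 in drought seeds (-0.32), with its 3 probe sets all lower. The pollen and anther genes profilin (0.03), raftin1b (0.11) and raftin1a (-0.16) overlapped between the groups. Of the 39 grouped genes with several probe sets, 21 had all of them on one side.

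**Figure D4:**
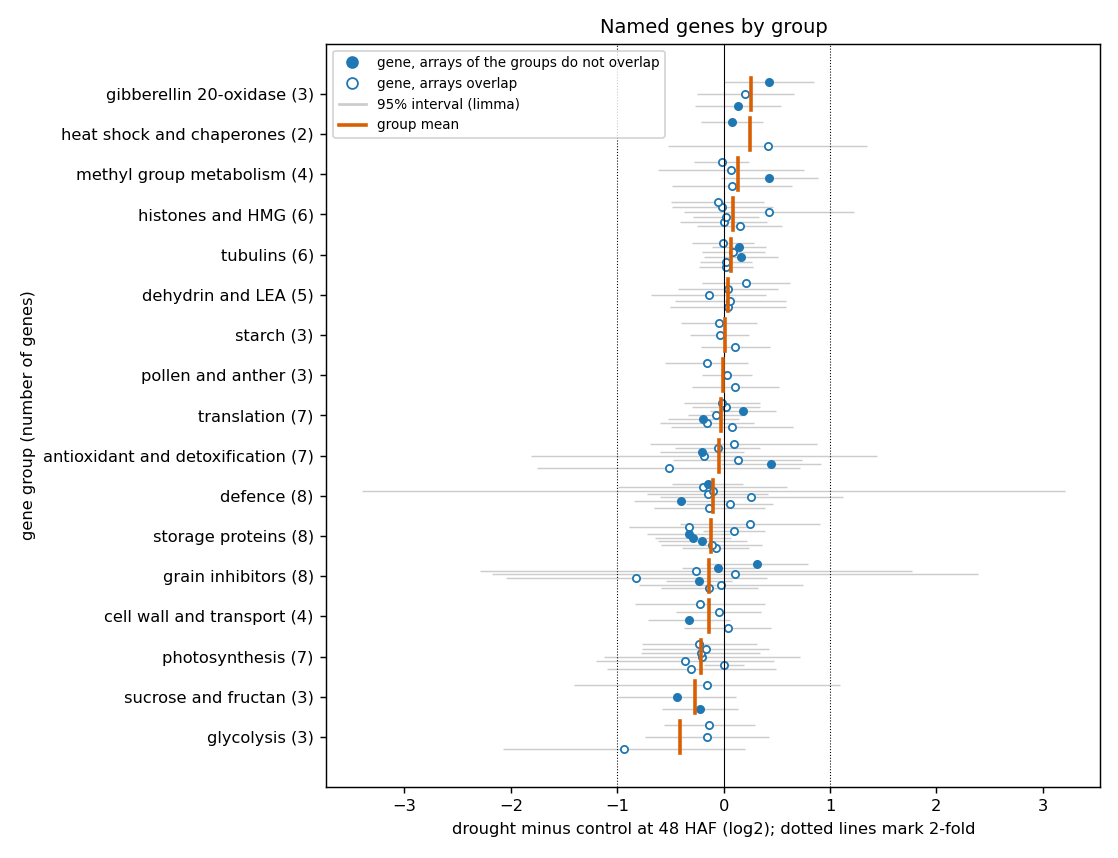
Difference between drought and control at 48 HAF (log2) for the 87 genes in 17 groups, 1 point a gene by its brightest probe set, with limma's 95% interval as a grey line, the group mean as an orange bar, filled points where the arrays of the groups did not overlap and dotted lines at 2-fold. Every point lies between the dotted lines, and 73 of the 87 intervals do.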

How the data were processed

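RNA from whole seeds was hybridised to Affymetrix wheat arrays, with a separate array for each sample. The authors deposited log2 expression levels. Per the submitters' processing notes they used RMA and the package affy, of versions not given in the sources that were used. RMA corrects background, sets the arrays to a common distribution and summarises each probe set, so array-wide shifts are removed, and no detection calls were used. The values were used as deposited. Groups follow the titles, and 0 columns were left unmapped.

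The comparison was tested with limma 3.58.1 in R 4.3.3 on the 4 arrays of 48 HAF, letting the prior variance follow the mean level. There were 2 degrees of freedom from the arrays and 3.34 from the prior. P-values were adjusted by Benjamini-Hochberg over 61179 probe sets, with a threshold of 0.05. The 4 arrays were fitted alone because those of the other times spread more between replicates. The fit was checked on simulated data. The difference of the drought effects was fitted on the 8 arrays of 48 and 72 HAF. The members, gene lists and tests were chosen with earlier results of these data known. Symbols came from GEO's platform annotation (0 probe sets with several), and 770 of the 771 genes were matched by Entrez identifier. Of 18 lists, those of abscisic acid, transcription factors, signalling kinases and proteases caught no gene, and the groups described were extended after the names were seen. A gene was read by its brightest probe set over all 10 arrays.

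Named items were to be up to 10 probe sets in each direction past the threshold, of which there were 0. They were also genes with 1 symbol separated by 2-fold, the 5 unnamed separated probe sets of widest gap in each direction, the 10 genes of smallest p with all their probe sets, and up to 4 members of each list by size of difference. Others were chosen after their values were seen. The same-numbered replicates of 48 HAF did not deviate together (r = -0.49 between the replicate differences in control and drought), so the numbers were not taken to pair the samples. Alternatives covered the arrays fitted, the trend, centring, a filter on levels, blocks and each array left out.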

Additional observations from a re-analysis of the deposited data

Results flagged for a closer look

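The drought effect went opposite ways at 48 and 72 HAF, with the arrays of drought and control overlapping at neither time, in 28 of the 101 probe sets separated by 2-fold at 48 HAF. At 72 HAF, 13% of all probe sets had both drought arrays above both controls and 8.37% had them below. The 18 probe sets given here are those among the items the report describes, of any size of difference at 48 HAF, and other probe sets show the same. Their 48 HAF values had served to choose most of them. By limma's test of the difference between the effects over all probe sets, each has an adjusted p of 0.999.

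TaAffx.9330.1.S1_at differed by -2.83 at 48 HAF and 0.29 at 72 HAF, a difference of -3.12 between the effects. For Ta.3696.2.S1_at the values were -1.89 and 0.93, a difference of -2.82, and for Ta.3696.2.S1_x_at the difference was -2.63. For Ta.20909.2.S1_s_at they were -1.37 and 1.00, a difference of -2.36. All 4 were lower in drought at 48 HAF and higher at 72 HAF. So were TaAffx.25555.3.S1_s_at, at -1.67 and 1.12 (a difference of -2.78), TaAffx.25555.1.S1_s_at, at -1.46 and 0.55 (-2.02), TaAffx.106641.1.S1_at, at -1.61 and 1.15 (-2.76), and TaAffx.13113.2.S1_s_at, at -1.55 and 0.75 (-2.29). The pair nearest to the 2-fold limit, TaAffx.118084.1.S1_at and Ta.10775.2.S1_at, had differences between the effects of -2.38 and -1.83. Ta.4398.1.S1_at had -3.69, with its 48 HAF difference resting on control replicate 1. In the other direction, TaAffx.56965.1.S1_at differed by 1.29 and -0.47, a difference of 1.76, and read 7.13 and 2.11 on the control arrays of 24 HAF. Ta.3079.2.S1_s_at had a difference of 1.94, with its 48 HAF difference resting on drought replicate 1.

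Among genes with a symbol, LOC543458 (Ta.8783.1.A1_at) differed by -0.58 and 0.32, a difference of -0.90. The peroxiredoxin PER1 differed by -0.20 and 1.28 in Ta.14503.1.S1_at (a difference of -1.49), while its other probe set, Ta.24688.2.S1_a_at, went the other way at both times, by 0.17 and -0.38. The low-molecular-weight glutenin LOC543213 (Ta.160.2.S1_x_at) differed by -0.33 and 0.99 (-1.32). The thionin-like TTHV (Ta.19.1.S1_at) differed by -0.15 and 0.40 (-0.55), and the tubulin tubb3 (Ta.2837.1.S1_s_at) by 0.15 and -0.12 (0.27). Groups of 2 arrays are too small to test a single array as an outlier.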

How the results depend on the processing

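For drought against control at 48 HAF, limma called 0 probe sets with all 10 arrays (82 at an unadjusted p under 0.05), with the 8 arrays of 48 and 72 HAF (479), without the trend (1663), with a robust prior (1649), on centred arrays (1576), with a mean level of at least 5 (422) and with the replicate block (808). It also called 0 to 0 without each array. The crossed replicate block, chosen after seeing the data, called 1, TaAffx.9330.1.S1_at, lower at adjusted p = 0.012. That the effects at 48 and 72 HAF differ was called for 0 to 18 probe sets without 1 array. The count was 17 without control 48 HAF replicate 2 and 18 without control 72 HAF replicate 2, all lower, and the cause was not tested. The replicate block called 0.

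The 101 separated probe sets became 603 at 1.5-fold, 15 at 4-fold, 47 with a mean level of at least 5, 11 with a 2-fold gap between the nearest arrays and 44 with control arrays under 2-fold apart. The last was chosen after seeing the data. Without 1 array the count was 364 to 701, since 3 arrays separate more easily than 4. Centring gave 103, and the replicate block, which asks same-numbered arrays to differ in 1 direction, gave 124. The 62 probe sets that were higher at 72 HAF became 51 to 70 without 1 array. Of 102 alternative values of the gene groups, 0 moved beyond the spread between replicates. Of 115 for 23 named probe sets 0 changed sign. All 23 were separated, so leaving out 1 array could not have changed their sign. In 5 of the 23 the difference shrank by over 1.5 times without 1 array.

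Arrays of 2 per group limit the precision of every value. Signal over background was not measured, and 13 of the 101 separated probe sets lay under the array medians in both groups. The 771 named genes are a small part of the array.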
